A study of Mus musculus with 2 samples.

Results

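Liver sinusoidal endothelial cells (LSEC) were taken from single-cell RNA libraries of mouse liver tumors by a gate on their own transcripts. A barcode was counted as LSEC when it held at least 3 transcript molecules (UMIs) of Stab2 and Clec4g together, at least 1 of the pan-endothelial genes Pecam1, Cdh5, Kdr and Ptprb, at most 2 of the macrophage genes C1qa, C1qb and C1qc and at most 1 of the T cell genes Cd3d, Cd3e and Cd3g. It also had to hold at least 500 UMIs and 200 genes, with at most 25% of UMIs from mitochondrial genes. The gate found 1242 LSEC among 21304 barcodes within these limits and 32946 barcodes in all, 932 in the WT library and 310 in the hKO library. The gate was chosen on these counts, so the levels of its genes are given as a description.

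The study profiled hepatocellular carcinomas in C57BL/6J mice with 10x Genomics 3′ libraries from single cells in droplets, with 1 library from wild-type mice (WT) and 1 from littermates with a hepatocyte knockout of Fabp5, a fatty acid binding protein (FABP5 hKO, here hKO). Both groups were 6 to 8 weeks old when they were given 5 tamoxifen injections of 100 mg/kg, 3 days apart and each following a 16 h fast. A CD-HFD diet followed 2 weeks after the last injection and lasted 15 months in both groups. Each library pooled 2 to 3 tumors, digested in collagenase at 37 °C for 1 h and passed through a 40 µm filter. The line that drives the deletion, the sex of the mice and the number of animals behind a pool are not stated in the labels, and the deletion is aimed at hepatocytes, not at the cells described here. With 1 library per group no test was possible. Each interval below is a 95% interval that covers counting error only, and a difference between the libraries cannot be told apart from a difference between these pools, their dissociation or their capture.

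Sinusoidal endothelium lines the low-pressure capillaries of the liver, has open pores and no continuous basement membrane, and clears macromolecules, immune complexes and lipoprotein remnants from portal blood through scavenger receptors. It also sends signals to its neighbors: BMP ligands that set hepcidin in hepatocytes, and Wnt ligands and R-spondin from the endothelium around the central vein that hold the metabolic zones of the lobule. In fibrosis and in tumors this endothelium is known to lose some of these features and to gain those of ordinary capillaries, a process called capillarization.

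The LSEC were well sampled in both libraries. They held 6152688 UMIs in WT against 1805200 in hKO, with a median of 5867.5 and 5282 UMIs and of 2595 and 2370.5 genes per barcode. Their median mitochondrial share was 6.53% in WT and 12.2% in hKO, and 18.5% and 36.8% of all barcodes of the 2 libraries were over the limit. Markers of hepatocytes made up 0.215% and 0.525% of LSEC UMIs, hemoglobin 1.08% and 0.513%, and immunoglobulin 0.539% and 0.0243%. Malat1, a nuclear RNA, stood at 14000 UMIs per 1000000 UMIs of the LSEC of that library (CPM) in WT against 8740 in hKO. Cell barcodes shared by both libraries numbered 73, none of them LSEC in both, and 5 WT LSEC barcodes also occurred in the hKO library. Fabp5 itself, the gene deleted in hepatocytes, was low in LSEC, with 112 UMIs or 18.2 CPM in WT and 24 UMIs or 13.3 CPM in hKO (log2 ratio of hKO over WT -0.45, interval -1.15 to 0.19). In the hepatocyte gate it stood at 32.7 CPM in WT and 13.2 CPM in hKO, from 84 and 49 UMIs, a 3′ count that does not show which exons were present.

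Of 5 sinusoidal markers, 2 were used by the gate and 3 could check the identity of its barcodes. Stab2, the hyaluronan scavenger receptor stabilin-2, stood at 3093 CPM in WT against 2292 in hKO, and Clec4g, the C-type lectin LSECtin, at 991 and 495. Lyve1, a hyaluronan receptor, stood at 607 CPM in WT against 518 in hKO (log2 -0.23, -0.33 to -0.12). Bmp2, the BMP ligand, stood at 491 and 487 CPM (log2 -0.01, -0.12 to 0.10). F8, coagulation factor VIII, for which endothelium is the known source, stood at 1767 and 969 CPM (log2 -0.87, -0.94 to -0.79). These 3 markers were abundant in both libraries, and F8 showed the widest gap between them. F8 was the least particular to LSEC of the 3, since other endothelium held it too, as given below.

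Both Stab2 and Clec4g were detected in 81.5% of WT LSEC and 71.9% of hKO LSEC. The gate was reached by Stab2 alone in 13.1% and 26.1%, and by Clec4g alone in 5.36% and 1.94%. Barcodes just inside the threshold, with exactly 3 gate UMIs, numbered 66 in WT against 22 in hKO, and those just outside, with exactly 2, numbered 99 and 31. Lyve1 stood at 311 CPM in WT against 201 in hKO just inside, and at 123 and 184 CPM just outside. In LSEC with 10 or more gate UMIs it stood at 667 and 609 CPM. Cd74, the class II invariant chain of antigen-presenting cells, stood at 1155 CPM in WT against 731 in hKO just inside, against 3914 and 1123 just outside.

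Genes of other cell types were looked for in the same barcodes. T cell genes (6) summed to 14.6 CPM in WT LSEC and 15.5 CPM in hKO LSEC, against 2668 and 1903 CPM in T cells gated on Cd3 (T gate). Kupffer cell and macrophage genes (10) summed to 101 and 102 CPM, against 15154 and 7811 in macrophages gated on C1q. Stellate cell and fibroblast genes (7) summed to 10.9 and 4.43 CPM, with Col1a2 and Pdgfrb at 0 in WT and Col1a1, Reln and Pdgfrb at 0 in hKO. Lymphatic endothelial genes (5) summed to 11.4 and 11.1 CPM, with Pdpn and Ccl21a at 0 in both libraries, and cholangiocyte genes (4) to 2.28 and 2.22 CPM. The gate itself caps the C1q genes of the macrophage list and the Cd3 genes of the T cell list, so the sums of these 2 lists are partly fixed by the rule and are no check of purity. The stellate, lymphatic and cholangiocyte lists were not used by the gate.

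Hepatocyte genes and B cell genes did differ between the libraries inside the gate. The 12 hepatocyte genes summed to 2147 CPM in WT LSEC against 5247 in hKO LSEC, beside 2239 and 7231 CPM in the T gate, which should lack them. Alb stood at 775 and 2178 CPM and Apoa2 at 68.9 and 886 CPM in LSEC. The 5 B cell genes summed to 643 CPM in WT against 108 in hKO, and 82.5% of the WT Ighm UMIs sat in 1 barcode. Without that gene Cd79a, a part of the B cell receptor, stood at 45.8 and 13.8 CPM. Class II genes were concentrated as well: 10 barcodes held 34.5% of Cd74 UMIs in WT and 52.4% in hKO. Monocyte and neutrophil genes (6) summed to 648 CPM in WT LSEC and 844 in hKO LSEC, beside 879 and 1161 in the T gate. Of the Lyz2 UMIs among these, 10 barcodes held 76.1% in WT and 90.2% in hKO. Plasmacytoid dendritic cell genes (4) summed to 683 and 603 CPM in LSEC, with the highest member at 591 and 459 CPM.

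LSEC were set beside endothelial barcodes without any UMI of Stab2 or Clec4g and with at least 5 UMIs of Cdh5, Kdr and Ptprb, of which there were 79 in WT against 134 in hKO. This gate was defined after a wider one, which also counted Pecam1, was found to hold B cell and plasmacytoid dendritic cell genes. The B cell genes summed to 186 CPM in WT and 60.8 in hKO in the narrower gate, against 3052 and 1278 in the wider. Plasmacytoid dendritic cell genes still summed to 1317 and 1066 CPM in the narrower gate, and monocyte and neutrophil genes to 1021 and 1240 CPM. The genes ranked highest in LSEC over these Stab2-negative endothelial barcodes in both libraries included known sinusoidal genes. Gatm, the first enzyme of creatine synthesis, stood at 299 CPM in WT LSEC against 422 in hKO LSEC, against 9.18 and 11.9 CPM. Dnase1l3, a secreted DNase, stood at 997 and 591 CPM against 68.8 and 16.3. Mrc1, the mannose receptor, stood at 1609 and 1095 CPM against 147 and 53.4. Hgf, hepatocyte growth factor, stood at 191 and 273 CPM against 22.9 and 4.45. Fcgr2b, the inhibitory Fc receptor that takes up immune complexes, Msr1, a class A scavenger receptor, Oit3, Clec1b and Adam23 were also among the 15 highest.

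The genes ranked lowest in LSEC included known genes of larger vessels and continuous capillaries. Igfbp3, an IGF-binding protein, stood at 6.99 CPM in WT LSEC against 57.6 in hKO LSEC, against 156 and 1703 CPM in Stab2-negative endothelium. Mgp, matrix Gla protein, stood at 8.13 and 2.22 CPM against 319 and 78.6. Sparcl1 had 16 UMIs in WT LSEC against 0 in hKO LSEC, and stood at 158 and 75.6 CPM in Stab2-negative endothelium. Over the wider endothelial gate, which also held the leukocyte genes named above, the 15 highest genes included the gate's own Stab2 and Clec4g. The others were led by Bmp2, Mrc1, Adam23, Lyve1, Dnase1l3, Gatm and Maf, with Ppfia2, Ehd3 and Gpr182 also among them. Maf, a transcription factor of sinusoidal identity, stood at 1506 CPM in both libraries and at 353 and 153 CPM in Stab2-negative endothelium. The 5 sinusoidal markers summed to 883 CPM in WT and 314 in hKO in Stab2-negative endothelium, where the rule fixes Stab2 and Clec4g at 0. Lyve1 (50.5 and 71.2 CPM) and Bmp2 (22.9 and 34.1 CPM) were the smaller part of these sums. The larger part was F8, which was thus also lower in hKO there.

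**Figure D1:**
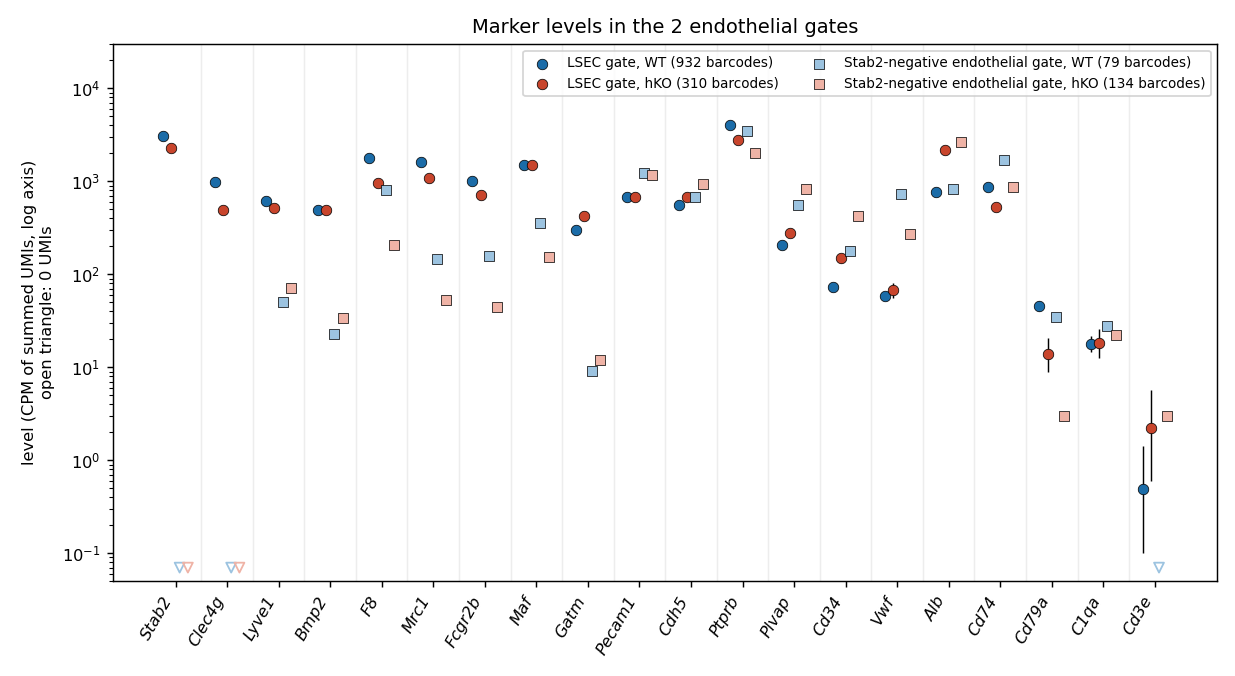
Levels of 20 marker genes in CPM of summed UMIs (log axis) in LSEC and in Stab2-negative endothelial barcodes of each library. Bars on the LSEC points are exact Poisson intervals of 95%, and open triangles mark 0 UMIs. Lyve1, Bmp2, Mrc1 and Gatm stand far higher in LSEC than in Stab2-negative endothelium in both libraries. Stab2, Clec4g, C1qa and Cd3e are genes of the gates, and their levels are set by the rule.

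LSEC were a smaller part of the hKO library. They made up 9.46% of kept barcodes in WT (Clopper-Pearson interval 8.89 to 10.1) and 2.71% in hKO (2.42 to 3.02), a log2 ratio of -1.80 (-2.06 to -1.56). Of all LSEC and Stab2-negative endothelial barcodes together, LSEC were 92.2% in WT and 69.8% in hKO (log2 -0.40, -0.52 to -0.29), so the 2 endothelial populations did not stand in the same proportion in both libraries. Barcodes that met the gate but were over the mitochondrial limit numbered 56 of 988 in WT (5.67%, 4.31 to 7.30) and 51 of 361 in hKO (14.1%, 10.7 to 18.2). With a limit of 10% the log2 ratio was -2.51, from 697 and 104 LSEC, and with a limit of 50% it was -2.01. The share of other cell types, tissue taken with the tumor and survival through digestion all enter a share of barcodes, and their part in the difference was not tested.

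To compare levels, UMIs of all LSEC were summed per library. A gene was measured with at least 50 CPM in a library, and was called when the log2 ratio of hKO over WT was at least 1 in size and its counting interval excluded 0. A called gene was set aside as possible free RNA when another gated population of the same library held it at over 10 times the LSEC level. The Stab2-negative endothelial gate was not among the populations checked. By that gate Igfbp3 (1703 CPM against 57.6 in hKO LSEC) and Rspo3 (2042 CPM against 126 in WT LSEC) would also have been set aside. Both were kept among the called genes. Of 4085 genes measured, 52 were called higher in hKO LSEC (1.27%) and 51 lower (1.25%), with 2.52% called in either direction. These shares are the background for every count of called list members below. Another 52 genes were set aside among those higher and 1 among those lower. The hepatocyte gate was the highest population for 61 of the genes on the higher side, counted before any was set aside. The median log2 ratio over all measured genes was -0.09. Genes called higher were 50.5% of all called, 67.0% when libraries were scaled to the median gene, 67.2% when abundant gene kinds were left out of the total and 36.1% after free RNA was subtracted. Leaving out the abundant kinds moved the median of genes measured in both libraries from -0.09 to 0.02.

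Zbtb16, which encodes the zinc finger factor PLZF, a known target of the glucocorticoid receptor, had the lowest ratio. It held 795 UMIs in WT LSEC, or 129 CPM, and 3 UMIs in hKO LSEC, or 1.66 CPM (log2 -6.28, -8.56 to -4.73). The WT UMIs came from 314 barcodes, of which the highest held 1.89%, and the hKO UMIs from 3. After thinning every barcode to 1000 UMIs it was detected in 12.4% of WT LSEC and 0% of hKO LSEC (up to 1.19%). Without thinning these shares were 33.7% and 0.968%. The T gate, at a median of 4012 and 3975.5 UMIs, held it in 4.40% and 7.11% of thinned barcodes, so the T cell share ran the other way.

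The same gene was compared across the other gated populations. In Stab2-negative endothelium Zbtb16 stood at 190 CPM in WT against 5.93 in hKO (log2 -5.00), and in the hepatocyte gate at 271 and 14.0 CPM (log2 -4.28). T cells held 74.8 and 100 CPM (log2 0.42), macrophages 20.1 and 11.5 CPM (log2 -0.81), and neutrophils 55.0 and 60.7 CPM. Stellate cells held 327 and 40.6 CPM (log2 -3.01), plasmacytoid dendritic cells 17.7 and 5.26 CPM (log2 -1.75), B cells 7.19 and 3.74 CPM (log2 -0.94), and erythroid barcodes 17 and 0 UMIs. The level was thus lower in the hKO library in most of the gated populations, with T cells and neutrophils on the other side of 0. Among LSEC with a mitochondrial share of 8 to 16%, 244 in WT and 166 of hKO, with medians of 10.5% and 11.4%, the log2 ratio was -5.70.

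Of the 6 measured genes of the glucocorticoid response and metallothionein list, 1 was called lower and none higher, with a median log2 of -0.40 beside -0.09 for all measured genes. Fkbp5, an immunophilin induced by glucocorticoids, stood at 243 CPM in WT against 136 in hKO (log2 -0.84, -1.04 to -0.64). Fkbp5 was lower in hKO in every other gated population as well, with log2 ratios of -1.40 in Stab2-negative endothelium, -0.63 in T cells and -2.08 in macrophages. Klf9, another induced transcription factor, stood at 151 and 92.5 CPM (log2 -0.71). Sgk1, a kinase of the same response, stood on the other side, at 176 and 222 CPM (log2 0.33, 0.17 to 0.50). Tsc22d3 (GILZ) stood at 134 and 141 CPM and Mt1 at 114 and 107 CPM. The list therefore had members on both sides of 0, and Zbtb16 was far from the rest of it.

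Of 9 measured genes of the BMP and TGF-beta response list, 2 were called lower in hKO LSEC and none higher, beside 1.25% called lower of all measured genes. The median log2 was -0.46 and 8 of 9 ratios were below 0, among them Tgfbr2 (-0.09) and Ltbp4 (-0.00), whose intervals include 0. Id1 and Id3, inhibitors of helix-loop-helix factors and direct BMP targets, were the 2 called. Id1 stood at 202 CPM in WT against 81.4 in hKO (log2 -1.31, -1.57 to -1.06), and was detected in 14.7% and 7.12% of thinned LSEC. Id3 stood at 909 and 419 CPM (log2 -1.12, -1.23 to -1.01). The inhibitory Smads, which BMP signals induce, stood lower without a call, Smad6 at 260 and 144 CPM (log2 -0.85) and Smad7 at 156 and 110 CPM (log2 -0.50). Smad1, which carries the signal, stood at 165 and 168 CPM (log2 0.02, -0.16 to 0.21).

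The ligands and receptors of that pathway were read next. Bmp2 was level between the libraries, as given above, and Bmp6 stood at 430 CPM in WT against 273 in hKO (log2 -0.66, -0.80 to -0.52). The receptor Bmpr2 stood at 965 and 752 CPM (log2 -0.36), and Eng, the co-receptor endoglin, at 956 and 612 CPM (log2 -0.64). Acvrl1 (ALK1) stood at 34.1 and 39.3 CPM and was under the level for a call. Lower Id3 was not limited to LSEC: its log2 ratio was -1.05 in Stab2-negative endothelium, -2.12 in macrophages and -2.00 in T cells. In the 8 to 16% mitochondrial band the LSEC ratios were -1.04 for Id1 and -0.81 for Id3, so that Id3 was no longer called.

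Ednrb, endothelin receptor B, which removes endothelin-1 and couples to nitric oxide release in endothelium, was called higher with the narrowest interval among the 6 highest genes. It stood at 127 CPM in WT LSEC (119 to 137) against 552 in hKO LSEC (518 to 587), from 784 and 996 UMIs, a log2 ratio of 2.11 (1.98 to 2.25). It was detected in 7.15% of WT LSEC and 30.7% of hKO LSEC after thinning, and in 18.5% and 56.8% without it, against 0% and 0.403% of thinned T cells. Stab2-negative endothelium held more of it, 385 CPM in WT against 678 in hKO (log2 0.81). The 10 highest barcodes held 37.5% of its UMIs in WT and 23.7% in hKO, so no small set of barcodes carried it in hKO. Its ligand gene Edn1 stood at 34.8 and 17.2 CPM, under the level for a call. Among vascular growth factor receptors and their partners Ednrb was the 1 called of 13 measured, and the list's median log2 was -0.13. Flt1 stood at 723 and 660 CPM, Flt4 at 524 and 404, Tek at 527 and 445, and Ramp2, a receptor chaperone with Calcrl, at 458 and 268 (log2 -0.77).

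Cacna1a, the pore of the P/Q-type calcium channel, stood at 5.69 CPM in WT against 92.5 in hKO (log2 4.02, 3.49 to 4.59), from 35 and 167 UMIs in 23 and 106 barcodes. Macrophages held it at 4.16 and 92.4 CPM (log2 4.47), while in Stab2-negative endothelium it stood at 27.5 and 14.8 CPM. Igfbp5 stood at 30.9 CPM in WT against 256 in hKO (log2 3.05, 2.80 to 3.30), and 57.4% of its hKO UMIs sat in 10 barcodes. Igfbp3 (log2 3.04) was held by 10 barcodes in each library, and 1 barcode held 30.2% of its UMIs in WT and 36.5% in hKO. Both IGF-binding proteins were also higher in hKO Stab2-negative endothelium, with log2 ratios of 3.04 and 3.45. For Igfbp5 this rested on 4 WT and 51 hKO UMIs. Igfbp5 was higher in hKO T cells as well (1 and 37 UMIs, log2 5.36) and in plasmacytoid dendritic cells (0 and 18 UMIs). In stellate cells it was lower in hKO (28 and 3 UMIs, log2 -2.82).

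Piezo2, a mechanosensitive cation channel, stood at 19.8 CPM in WT against 101 in hKO (log2 2.35, 2.01 to 2.69), and its log2 ratio in Stab2-negative endothelium was 2.82. Flrt2, a guidance and adhesion protein, stood at 38.5 and 138 CPM (log2 1.84, 1.58 to 2.10) and was detected in 2.97% and 10.7% of thinned LSEC. In Stab2-negative endothelium Flrt2 stood on the other side of 0 (log2 -0.81). Fn1, fibronectin, with 46.5% of its hKO UMIs in 10 barcodes, stood at 26.3 and 88.1 CPM (log2 1.74), Rapgef4, the cyclic AMP sensor EPAC2, at 32.8 and 85.9 CPM (log2 1.39), and Rflnb, an actin regulator, at 27.1 and 79.8 CPM (log2 1.56). Ccr2, a chemokine receptor of monocytes, had 82.7% of its 133 hKO UMIs in 10 barcodes, and its log2 ratio of 1.47 was 0.51 without the barcodes of highest doublet score. Hspa1b, an inducible Hsp70 whose near-identical copy Hspa1a makes its count uncertain, stood at 19.7 and 68.1 CPM (log2 1.79), and its ratio turned to -1.99 after free RNA was subtracted. Ccdc152 (log2 1.81) overlaps Selenop on the opposite strand and was higher in T cells and macrophages as well, with log2 ratios of 3.37 and 3.08. Tmem258 and Cops9, with log2 ratios of 1.42 and 1.39, had ratios of 1.71 and 1.42 in T cells. Crip1, a small LIM protein, stood at 49.9 and 141 CPM, with 64.2% of its hKO UMIs in 10 barcodes, and was no longer called without the barcodes of highest doublet score (log2 1.02).

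A group of small housekeeping genes was seen among those called higher. By their symbols 73 measured genes encoded subunits or assembly factors of the respiratory chain and ATP synthase. Of these 11 were called higher and none lower, beside 1.27% called higher and 1.25% lower of all measured genes. Their median log2 was 0.35, and this grouping was chosen after the called genes were seen. Cox6c stood at 118 CPM in WT against 251 in hKO (log2 1.09), and Uqcr10 at 61.3 and 141 CPM (log2 1.20). The median over the same 73 genes was 0.58 in Stab2-negative endothelium, 0.93 in T cells and 0.52 in macrophages. The mitochondrial share of LSEC moved with them, 6.53% in WT and 12.2% in hKO, and its part in their ratios was not tested.

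**Figure D2:**
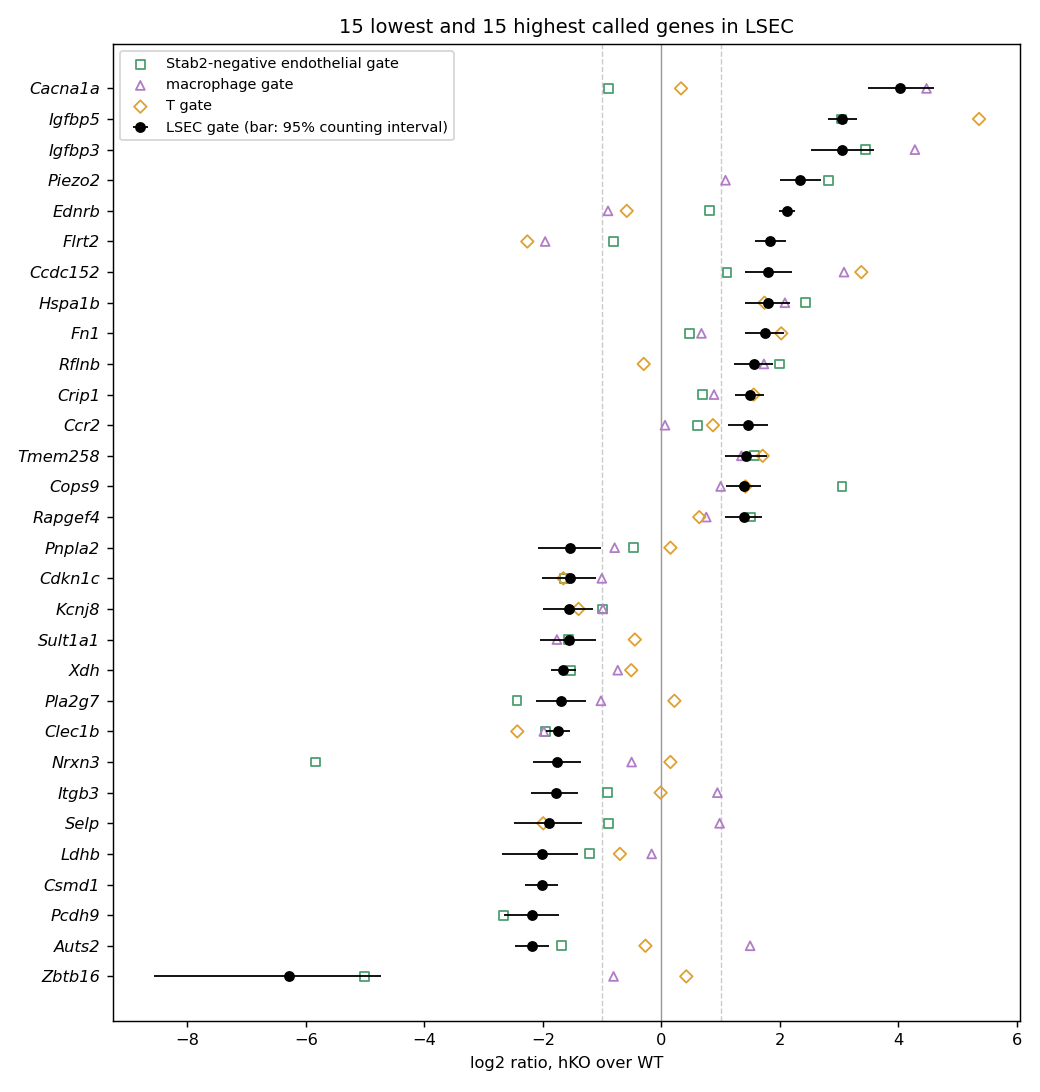
Log2 ratios of hKO over WT for the 15 lowest and 15 highest called genes in LSEC (black, with 95% counting intervals), beside the same ratio in Stab2-negative endothelium, macrophages and T cells where both libraries held a UMI. Zbtb16 stands at -6.28 in LSEC and at 0.42 in T cells, and Ednrb at 2.11 in LSEC and 0.81 in Stab2-negative endothelium.

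Among the genes called lower, several encode adhesion or surface proteins of endothelium. Clec1b, the receptor CLEC-2, which binds podoplanin, stood at 420 CPM in WT against 126 in hKO (log2 -1.74, -1.94 to -1.54) and was detected in 30.4% and 10.0% of thinned LSEC. Its log2 ratio was -1.98 in macrophages, which also express it. Selp, P-selectin, on which leukocytes roll, stood at 59.5 and 16.1 CPM (log2 -1.89, -2.49 to -1.34), and Itgb3, an integrin subunit, at 113 and 32.7 CPM (log2 -1.79). Adam23, a catalytically inactive member of the ADAM family, stood at 2107 and 886 CPM (log2 -1.25, -1.33 to -1.17). Igfbp7, a matrix protein of endothelium, stood at 2657 and 1257 CPM (log2 -1.08). In all 5 the ratio in Stab2-negative endothelium was also below 0, between -0.24 and -2.98.

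Enzymes formed another part of the genes called lower. Xdh, which makes uric acid from purines, stood at 363 CPM in WT against 115 in hKO (log2 -1.66, -1.87 to -1.45). Pla2g7, which breaks down platelet-activating factor, stood at 94.6 and 29.4 CPM (log2 -1.69), Ldhb, a lactate dehydrogenase subunit, at 51.4 and 12.7 CPM (log2 -2.01), and Sult1a1, a phenol sulfotransferase, at 70.4 and 23.8 CPM (log2 -1.56). Cyp4b1, a cytochrome P450, stood at 479 and 187 CPM (log2 -1.36), and it was named after its values were seen. Xdh was detected in 29.6% and 9.06% of thinned LSEC, so the lower level was seen over many barcodes.

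The remaining genes of the lowest 15 encode regulators, adhesion proteins and a channel. Auts2, a regulator of transcription, stood at 269 CPM in WT against 59.3 in hKO (log2 -2.18, -2.48 to -1.90) and was detected in 19.7% and 5.18% of thinned LSEC. Csmd1, a complement-control membrane protein, stood at 259 and 63.7 CPM (log2 -2.02), with 0 UMIs in Stab2-negative endothelium of both libraries. Pcdh9, a protocadherin (log2 -2.18), was carried by 48 WT barcodes and by 5 hKO barcodes, of which 1 held 61.9% of the hKO UMIs. Nrxn3, a neurexin, stood at 107 and 31.6 CPM (log2 -1.76). Kcnj8, a pore subunit of ATP-sensitive potassium channels, stood at 86.5 and 29.4 CPM (log2 -1.56), and Cdkn1c, the cell cycle inhibitor p57, at 75.9 and 26.0 CPM (log2 -1.54). Ccn2, a matrix protein and known YAP target, stood at 283 and 103 CPM (log2 -1.46) and was named after its values were seen.

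Scavenger and endocytic genes serve the defining function of LSEC. Of 13 measured, 1 was called lower and none higher, 10 had a ratio below 0, and the median log2 was -0.23. Ctsl, the lysosomal protease cathepsin L, was the 1 called, at 1409 CPM in WT against 595 in hKO (log2 -1.24, -1.34 to -1.15), a call lost in the 8 to 16% mitochondrial band (log2 -0.97). Msr1 stood at 637 and 362 CPM (log2 -0.82), Cd300lg at 381 and 220 CPM (log2 -0.79), Mrc1 at 1609 and 1095 CPM (log2 -0.56), Fcgr2b at 1019 and 713 CPM (log2 -0.51) and Stab1 at 546 and 396 CPM (log2 -0.46). Cd36, which takes up fatty acids and oxidized lipoprotein, was on the other side, at 1122 and 1365 CPM (log2 0.28, 0.22 to 0.35). Endocytic adaptors were level, Dab2 at 524 and 559 CPM and Cltc at 408 and 416 CPM. Scarb1, the HDL receptor, and Scarf1 were nearly level, with log2 ratios of -0.08 and -0.03. Within the list Ctsl and these 5 receptors thus stood lowest.

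Fatty acid handling genes were described next, since the deleted gene belongs to this pathway. Of 9 measured, 1 was called lower and none higher, with a median log2 of 0.05. Fabp4, the binding protein that endothelium holds at high level, stood at 1788 CPM in WT against 1855 in hKO (log2 0.05, -0.00 to 0.11), from 11001 and 3348 UMIs. Pnpla2, the triglyceride lipase ATGL, stood at 54.6 and 18.8 CPM (log2 -1.54, -2.09 to -1.02), and was the 1 called. Gpihbp1, which carries lipoprotein lipase to the capillary surface, stood at 1203 and 858 CPM (log2 -0.49), and Mgll, a monoglyceride lipase, at 327 and 236 CPM (log2 -0.47). Pparg, a lipid-sensing transcription factor, stood at 64.4 and 100.3 CPM (log2 0.64, 0.38 to 0.90). Plin2, a lipid droplet coat protein, stood at 127 and 132 CPM.

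Of 17 measured genes of capillarization and basement membrane, 1 was called higher in hKO LSEC and none lower, with 6 ratios below 0, 11 above and a median log2 of 0.26. Cd34, a sialomucin of continuous capillaries, was the 1 called, at 72.5 CPM in WT against 148 in hKO (log2 1.03, 0.80 to 1.25), and was detected in 5.50% and 11.7% of thinned LSEC. This call was lost, at log2 ratios of 0.95 to 0.99, with a mitochondrial limit of 50%, with C1q and Cd3 both at 0 and with barcodes weighted equally. Col4a1, a chain of basement membrane collagen, stood at 553 and 933 CPM (log2 0.75, 0.67 to 0.84), Col4a2 at 358 and 485 CPM (log2 0.44), and Plvap, the diaphragm protein, at 207 and 278 CPM (log2 0.42). Vwf, stored by endothelium of larger vessels, stood at 58.8 and 67.6 CPM, and Sparc at 1162 and 1160 CPM. Esm1, a tip-cell proteoglycan, went the other way, at 885 and 499 CPM (log2 -0.83, -0.93 to -0.73), and Angpt2 stood at 84.0 and 63.7 CPM (log2 -0.40). The list therefore held members on both sides of 0. Some of its levels depended on how far a barcode stood inside the gate. In LSEC with exactly 3 gate UMIs Vwf stood at 171 CPM in WT against 292 in hKO, and Plvap at 437 and 557. In LSEC with 10 or more gate UMIs Vwf stood at 43.4 and 23.0 CPM, so its direction turned. Plvap stood at 178 and 226 CPM and Cd34 at 68.7 and 133 CPM in these, still higher in hKO.

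Transcription factors of endothelial identity showed no call among 17 measured, with a median log2 of 0.05. Meis2 stood at 1679 CPM in WT against 1688 in hKO, Nr2f2 (COUP-TFII) at 490 and 497 CPM, and Maf at equal level. Gata4, which holds the sinusoidal program, stood at 455 and 317 CPM (log2 -0.52, -0.66 to -0.39), the lowest of the list. Sox18 had the highest ratio, at 117 and 197 CPM (log2 0.75, 0.56 to 0.93), followed by Mecom at 390 and 582 CPM (log2 0.58). Of 8 measured Notch genes 1 was called, the ligand Jag1, higher in hKO, at 34.8 and 73.1 CPM (log2 1.07, 0.75 to 1.39), a call lost under 4 alternatives with ratios down to 0.63. Its fellow ligand Dll4 stood at 128 and 93.1 CPM (log2 -0.46) and the target Hes1 at 169 and 116 CPM (log2 -0.54).

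Of 13 measured angiocrine ligands, the secreted or membrane-bound signals of LSEC to their neighbors, 1 was called higher (Jag1) and 1 lower (Rspo3), with a median log2 of 0.04. Wnt2, a Wnt ligand of central LSEC, stood at 79.2 and 75.3 CPM (log2 -0.07, -0.36 to 0.21), and Hgf at 191 and 273 CPM (log2 0.51, 0.36 to 0.67). Rspo3, R-spondin 3, stood at 126 CPM in WT against 58.7 in hKO (log2 -1.10, -1.41 to -0.81). The 10 highest barcodes held 52.2% of these UMIs in WT and 84.0% in hKO, it was detected in 3.85% and 5.18% of thinned LSEC, and in the 8 to 16% mitochondrial band the log2 ratio was 0.39. The share of LSEC with Rspo3 therefore did not follow its summed level. The call was also lost with gate minimums of 5 or 2 UMIs and without any C1q or Cd3 UMI. It was lost too with barcodes weighted equally, after free RNA was subtracted and when CPM excluded the abundant classes of genes. Stab2-negative endothelium held far more Rspo3, at 2042 CPM in WT against 268 in hKO.

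Central and portal genes were read together within each LSEC. The zone of origin was read from 190 pairs among 20 genes, each found in at least 3% of thinned LSEC in both libraries, as the share with the second gene among barcodes with and without the first. Every barcode had 1000 UMIs here, and the 909 WT and 309 hKO barcodes of a library are not independent samples. Within the 28 pairs of central genes, the second gene was found more often beside the first in 22 pairs in WT against 20 in hKO. For the 66 pairs of portal genes this was so in 56 and 52. Among the 96 pairs that joined a central with a portal gene it was found less often in 73 and 63.

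Pairs with Wnt2 or Rspo3, both central genes, are given as examples. Cdh13, T-cadherin, was found in 68.6% of WT LSEC with Rspo3 and 10.5% of those without, and in 8 of 16 barcodes and 10.9% in hKO. Efnb2, ephrin-B2 of arterial endothelium, was found in 2.86% of WT LSEC with Rspo3 against 26.3% without, and in 6.25% against 27.3% in hKO. Dll4 was found in 0 of 59 WT barcodes with Wnt2 against 12.6% without, and in 0 of 15 hKO barcodes against 8.16%. On the portal side, Jag1 was found in 13 of 65 WT LSEC with Adgrg6, an adhesion receptor, against 2.49% without, and in 33.3% against 3.51% in hKO. Wnt2 and Rspo3 themselves were found together in 13 of 59 WT barcodes with Wnt2, against 2.59% of those without, and in 1 of 15 in hKO, against 5.10%. Over all pairs across zones, the intervals with and without the first gene stood apart in 22 pairs with fewer and 1 with more in WT, and in 2 with fewer and 2 with more in hKO. Within zones they stood apart with more in 8 central and 26 portal pairs in WT, and in 3 and 6 in hKO. All pairs across zones that stood apart with more held Fabp4, from the central list. They were Ly6a in WT (32.3% with Fabp4, 18.7% without), and Efnb2 (32.5% and 15.7%) and Ly6a (33.5% and 17.4%) in hKO. Fabp4 with Msr1 stood apart with fewer in WT (33.0% and 43.9%). With 309 hKO barcodes against 909 in WT, most intervals across zones overlapped in hKO, so the division was not clear there.

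The size of the zones was less clear from single genes. Central genes were found in similar shares of both libraries for Wnt2 (6.49% and 4.85%), Cdh13 (12.8% and 12.9%) and Fabp4 (64.7% and 62.8%), and in a larger share of hKO LSEC for Gatm (21.2% and 33.7%) and Thbd (5.72% and 10.4%). Of portal genes Ntn4, a netrin, was found in 44.4% of WT and 35.9% of hKO LSEC, Msr1 in 36.9% and 27.5%, and Efnb2 in 25.4% and 26.2%. Without thinning Gatm was found in 63.4% and 69.4% and Ntn4 in 79.4% and 66.8%. The T gate held Gatm in 0.810% and 1.74% and Ntn4 in 0.347% and 0.268% of thinned barcodes. Of 8 measured genes of the central list 1 was called lower (Rspo3) and none higher, and of 12 of the portal list 1 higher (Jag1) and none lower, with median log2 ratios of -0.01 and 0.04. The calls of Rspo3 and Jag1 were each lost under several alternatives, as given above.

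**Figure D3:**
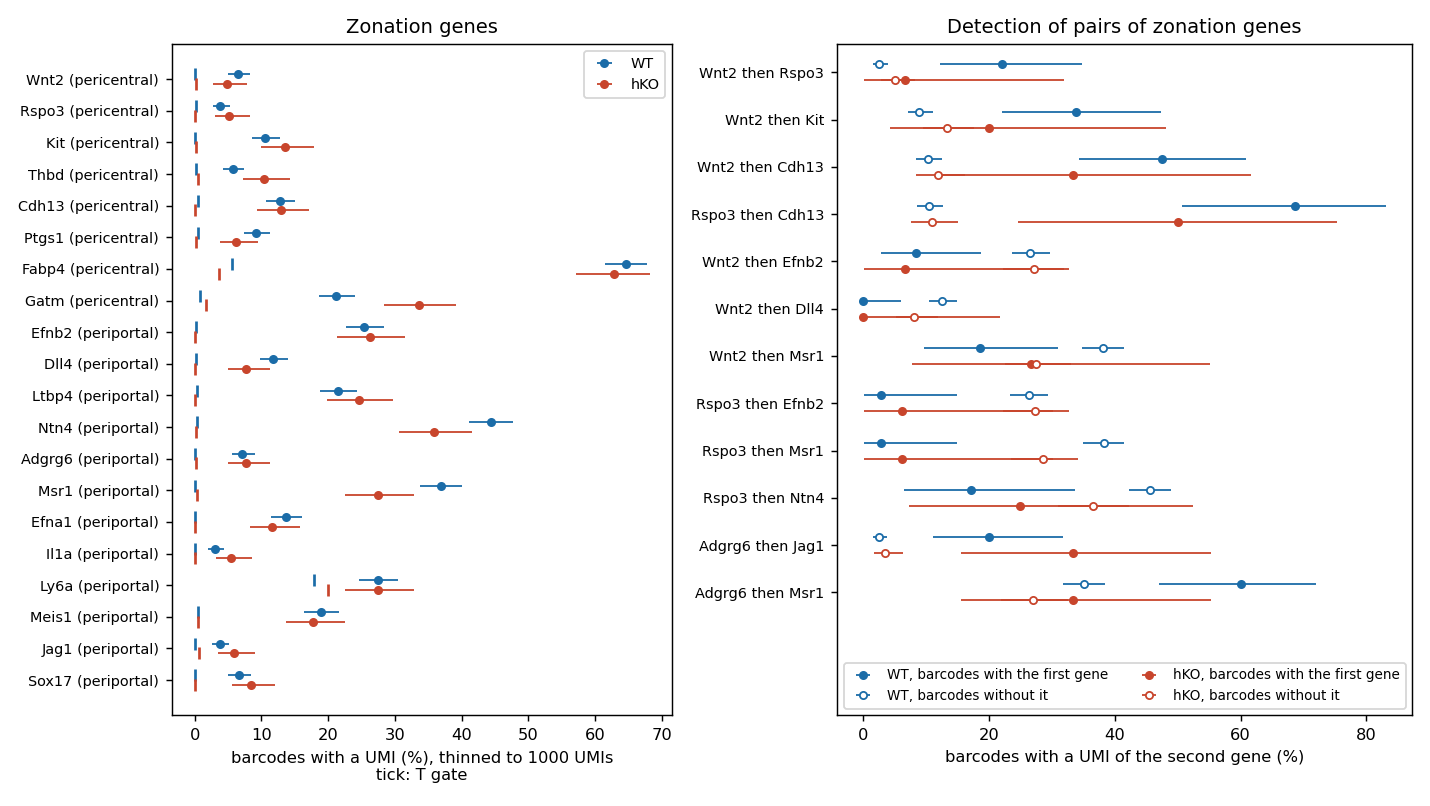
Left, share of LSEC with at least 1 UMI of each of the 20 central (pericentral) or portal (periportal) genes used in the pairs after thinning to 1000 UMIs, with Clopper-Pearson intervals of 95% and the T gate as ticks. Right, share with the second gene of a pair among LSEC with (filled) and without (open) the first, where Cdh13 is found in 68.6% of WT LSEC with Rspo3 and in 10.5% of those without.

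The coagulation list and the nitric oxide and shear response list held no called gene. Of 7 measured coagulation genes the lowest was F8, given above, and the highest Adamts1, a secreted protease, at 73.0 CPM in WT against 120 in hKO (log2 0.71, 0.47 to 0.95). Of 8 measured genes of nitric oxide and shear response, 6 had a ratio above 0, and the median log2 of 0.39 was the highest of the 22 lists. Cav2 and Cavin1, which build caveolae, stood at 56.4 and 91.4 CPM (log2 0.70) and at 67.9 and 107 CPM (log2 0.66). Nos3, the endothelial nitric oxide synthase, stood at 76.2 and 88.1 CPM (log2 0.21, -0.06 to 0.47), and Klf2, the flow-induced factor, at 314 and 270 CPM (log2 -0.22).

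Immune functions of LSEC showed few calls. Of 10 measured antigen presentation genes none was called, and the median log2 was -0.42, which ran from -0.47 to 0.44 over the alternatives. The class II genes stood below 0 in the main setting, with H2-Eb1 at 265 and 143 CPM (log2 -0.89) and Cd74 at 867 and 526 CPM (log2 -0.72), whose UMIs were concentrated as described above for Cd74. Their direction was not stable over the alternatives, where H2-Eb1 ran from -1.18 to 1.88 and Cd74 from -0.90 to 1.88. Genes of the class I pathway stood on both sides: H2-K1 at 836 and 1060 CPM (log2 0.34), B2m at 1372 and 1733 CPM (log2 0.34) and Tapbp with a log2 ratio of 0.41, but H2-D1 at -0.07 (-0.16 to 0.02), and the immunoproteasome subunits Psmb8 at -0.48 and Psmb9 at -0.41. Of 14 measured interferon response genes 1 was called higher, Ifi27l2a at 28.3 and 73.1 CPM (log2 1.37, 1.03 to 1.71), with a median log2 of 0.02 over the list. Of the Ifi27l2a UMIs in hKO 56.1% sat in 10 barcodes, and it was no longer called without the barcodes of highest doublet score. Isg15, a ubiquitin-like protein of that response, stood at 85.7 and 48.7 CPM (log2 -0.81). Cxcl9, a T cell attractant, stood at 207 and 255 CPM, and Cxcl10 at 29.3 and 58.2 CPM (log2 0.99, 0.63 to 1.35), the highest of 3 measured chemokines, none of them called. Among 10 adhesion genes Selp was the 1 called, while Icam1 stood at 48.4 and 47.6 CPM, under the level for a call, and Vcam1 at 111 and 105 CPM (log2 -0.09).

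Lists of stress and hypoxia genes had medians near 0. The median log2 was -0.00 over 9 measured immediate early genes, 0.03 over 5 heat shock genes and -0.01 over 7 hypoxia and glycolysis genes, and Hspa1b was the 1 called. Fos stood at 107 CPM in WT against 120 in hKO (log2 0.17, -0.06 to 0.40), and Ldha at 108 and 109 CPM. Mki67, a mark of dividing cells, stood at 31.2 and 20.5 CPM, from 27 WT and 5 hKO barcodes (log2 -0.61, -1.16 to -0.09), under the level for a call. Of the other division genes Stmn1 had a log2 ratio of -0.46 (-0.81 to -0.13), Hmgb2 0.17 and Tubb5 0.28. These were the 3 measured, with a median of 0.17 that ran from -0.24 to 0.56 over the alternatives. Of 5 measured iron genes 4 had a ratio below 0 and none was called, with Slc40a1, the iron exporter ferroportin, at 160 and 93.6 CPM (log2 -0.78) and Ftl1, the ferritin light chain, at 1370 and 983 CPM (log2 -0.48). Cp, ceruloplasmin, was higher (log2 1.68) but was set aside, since hepatocytes held it at over 10 times the level.

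**Figure D4:**
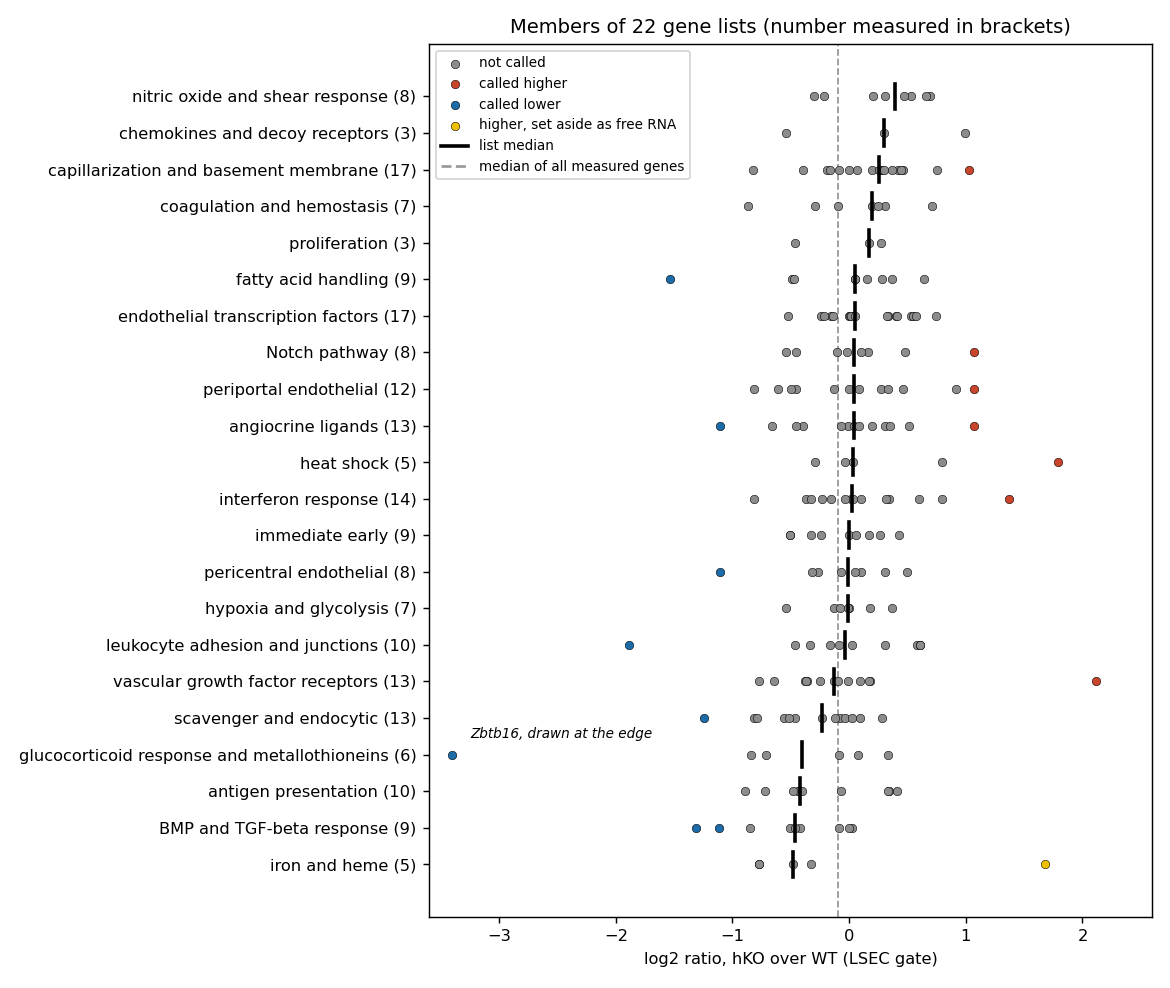
Log2 ratios of hKO over WT in LSEC for the measured members of 22 gene lists, ordered by the list median (black bar), with called genes in color and the median of all measured genes dashed. List medians run from -0.48 for iron and heme genes to 0.39 for nitric oxide and shear genes, every list holds members on both sides of 0, and Zbtb16, at -6.28, is drawn at the left edge.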

How the data were processed

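Raw UMI counts per gene and barcode of 2 libraries were read as deposited; per the file headers they were made with Cell Ranger 7.1.0 over 32285 features, without normalization. The submitters' processing notes list Cell Ranger, R 3.0, Seurat 3 and build mm9. Which annotation was used is not stated in the labels. The other deposited columns name genes and barcodes. Members and gene lists were chosen with earlier results of these data known. UMIs were summed per gate and library (Python 3.11.15) with exact Poisson, Clopper-Pearson and conditional binomial intervals at 95%; where a library held no UMI in a gate, 3 counts stood in as the floor. Mitochondrial, ribosomal-protein, hemoglobin, immunoglobulin, T cell receptor and numbered predicted genes, and the gate's own, entered no call. Named genes are the 15 highest and 15 lowest called, up to 4 per list with the largest ratio, gate, marker and zonation genes, and the 15 highest over other endothelium; further list members illustrate their lists. Doublets were left in, and removing the top Scrublet scores was an alternative. The code was checked on simulated counts.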

Additional observations from a re-analysis of the deposited data

Results flagged for a closer look

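Differences between the 2 libraries that ran in opposite directions in LSEC and in Stab2-negative endothelial barcodes are listed here; the difference between the 2 populations was not tested, and the second population holds 79 WT and 134 hKO barcodes. Esm1, a tip-cell gene, had a log2 ratio of hKO over WT of -0.83 in LSEC and 2.34 in Stab2-negative endothelium. Flrt2 had 1.84 and -0.81, and Hgf 0.51 and -2.37, the last from 10 WT and 3 hKO UMIs (-4.87 to -0.41). Il1a, an interleukin of the portal list, had 0.91 and -1.04, from 4 and 0 UMIs in the second population, where the 0 was set to the floor of 3 counts. Isg15 had -0.81 and 0.83, and Klf4, a flow-induced factor, 0.53 and -0.66.

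Barcodes that met the LSEC gate but lay over the mitochondrial limit entered no comparison, and they made up 14.1% of gate-positive barcodes in hKO against 5.67% in WT. Their Stab2 level was 3635 CPM in WT and 2888 in hKO, and their Lyve1 level 337 and 362 CPM.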

How the results depend on the processing

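The lower LSEC share in hKO kept its direction under all 11 alternatives. Its log2 ratio was -2.51 with a mitochondrial limit of 10%, -0.86 with LSEC and the wider endothelial gate as denominator, and -0.40 with LSEC and Stab2-negative endothelium, the last chosen after seeing the data. The 52 genes higher and 51 lower became 118 and 78 with the 10% limit, 80 and 39 when abundant gene kinds were left out of the total, 56 and 99 after free RNA was subtracted, 78 and 109 with a floor of 20 CPM, 26 and 30 with a floor of 100 CPM, and 102 and 49 in LSEC with 8 to 16% mitochondrial UMIs, a band chosen after seeing the data. The higher share of calls was 50.5% here, 67.0% with median scaling, 67.2% without abundant gene kinds, 67.5% in that band and 36.1% after free RNA was subtracted. Of 456 recomputed ratios of 38 called genes, 421 kept their call, 33 lost it and 2 reversed: Hspa1b to -1.99 after free RNA was subtracted and Rspo3 to 0.39 in the band. The cause was not tested. Calls lost in at least 1 alternative were those of Ccr2, Cd34, Crip1, Ctsl, Fn1, Id3, Ifi27l2a, Igfbp3, Jag1, Ldhb and Tmem258, besides these 2. Removing the top Scrublet scores took 109 WT and 49 hKO LSEC. No paired analysis was possible because each group is 1 library and no result comes from a test.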
